A study of Mus musculus with 3 samples.

Results

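Synovial cells from the inflamed joints of D1BC mice, cultured for 48 h in medium alone, were described from 1 array of the 3 in the series. This is the array whose treatment label reads vehicle, and it was chosen by that label only. The other 2 arrays carried RNA of the same kind of culture with CTLA-4-Ig or with human IgG, and they were not compared with it. The vehicle was DMEM with 10% fetal bovine serum. D1BC mice are DBA/1 mice with a transgene in which the promoter and enhancer of rat type II collagen drive murine B7.1 (Cd80), and their arthritis was induced with bovine type II collagen. The cells were freed from the pannus by enzymes and kept in culture overnight before the 48 h in vehicle. The isolation method also names a culture of 5 days, and whether the cells of this array had passed through it before the overnight step was not stated. Whether they came from 1 mouse or from several was not stated, nor was the age of the mice at that time.

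The synovium is the soft tissue that lines a joint. In health its lining is a thin layer of fibroblast-like synoviocytes (FLSs), which make hyaluronan and lubricin, and of macrophages, which clear debris. In inflammatory arthritis this tissue thickens into the pannus, whose fibroblasts secrete matrix proteases and chemokines and whose cells can drive bone-resorbing osteoclasts through RANKL.

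The array carried 23473 different probes, of which 20690 had 1 gene symbol, giving 19316 named genes. A probe was detected when its spot was brighter than the blank spots of the array by 2 standard deviations, and the deposited table was scaled so that the median of detected probes was 25. On this scale 19102 probes (81.4%) had a value, between 1.0 and 27288.9, and 15951 named genes (82.6%) had at least 1 detected probe. Where a gene had more than 1 probe, the log2 signals of those detected were averaged. The following limits are used throughout. The first is detection, which 82.6% of named genes passed. The second is the median of detected genes, a signal of 26.9, which 41.3% of named genes passed. The last is the lower limit of the brightest 10% of detected genes, a signal of 326.9, which 8.26% of named genes passed. A percentile is the percent of detected genes with a lower signal. With 1 array there was no replicate, no test and no error between cultures.

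Detection alone said little, since probes for genes used mainly in sensory tissue were often detected. Of 988 olfactory receptor genes, which are used in the nose, 476 were detected. The family was dim. With undetected genes counted as 0, 95% of the 988 lay below a signal of 22.7, and the 50 above it were all among the 476 detected. The median of detected genes was passed by 37 (3.74% of the 988). This 95th percentile is used as a further limit, and 43.9% of all named genes passed it. Of 3454 spots that carried no probe, 746 (21.6%) were above the detection threshold, and their 99th percentile was a signal of 2.30.

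**Figure D1:**
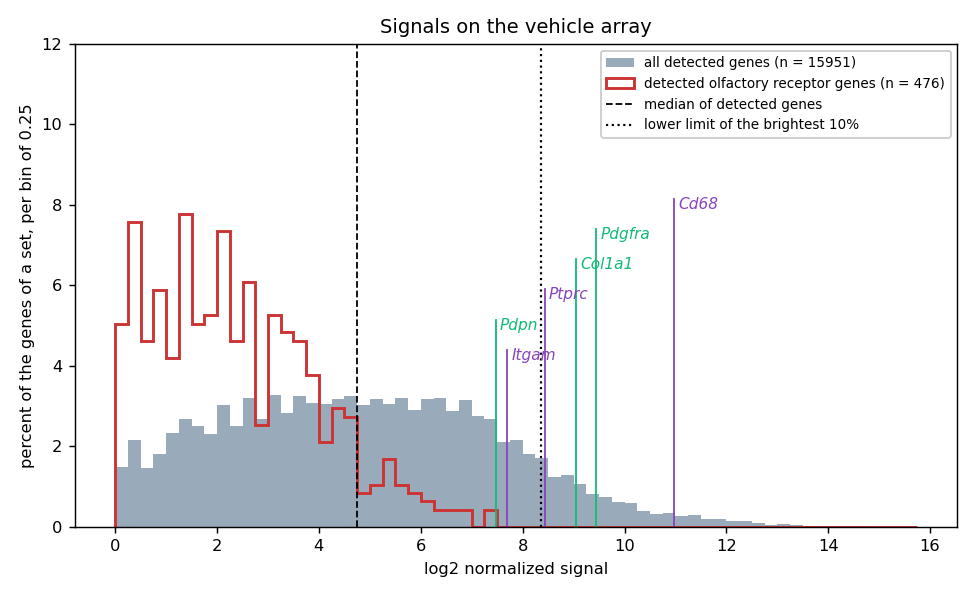
Histogram of log2 normalized signal (x axis) on the vehicle array, as the percent of the genes of each set in bins of 0.25 (y axis), for 15951 detected genes (filled) and 476 detected olfactory receptor genes (red line). The olfactory receptors lie mostly below the median of 26.9 (dashed), whereas the 6 marker genes (green fibroblast, purple macrophage) lie well above it and Ptprc, Col1a1, Pdgfra and Cd68 pass the limit of the brightest 10%, 326.9 (dotted).

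Signals of different genes are read by different probes, so that their order is an order of brightness and not of transcript number. Whether the probes of a gene read the same transcripts was not tested, so their spread is only a rough scale for this effect. It was taken from the 924 genes with exactly 2 probes that were both detected. The median gene had a 3.65-fold difference between its probes. In 259 genes (28.0%) the probes lay within 2-fold, and in 235 (25.4%) they were over 10-fold apart. Across these genes, which are not independent replicates, the Spearman correlation between one probe and the other was 0.232. The order of signals, also between genes 10-fold apart, is therefore no order of transcript amount. Among genes described below, Col3a1 had probes of 5442.8 and 574.4, Acp5 of 160.1 and 7.9, Cxcl12 of 1663.9 and 824.8, and Cd80 of 61.0 and 37.8.

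**Figure D2:**
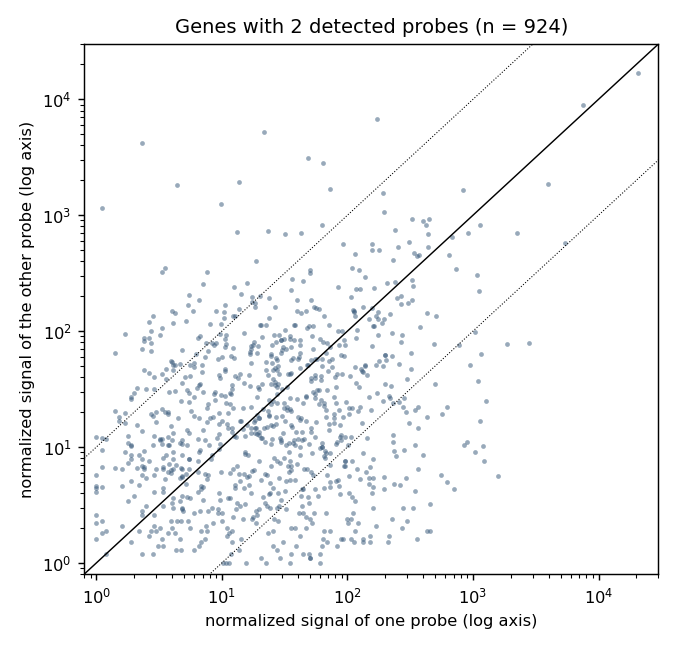
Normalized signals (both axes log) of the probes of the 924 named genes with 2 detected probes, 1 point per gene. The solid line marks equal signals and the dotted lines a 10-fold difference, beyond which 235 genes lie.

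The sample label gives the cell type as FLS, and the study describes the isolated cells as CD45- fibroblasts and CD45+ macrophages. The array held genes of both at high signals. Of 20 fibroblast markers all 20 were detected and 14 were in the brightest 10%. Of 30 macrophage markers all 30 were detected and 23 were in the brightest 10%, against 8.26% of all named genes. When the scanner's background column was subtracted instead (normexp with an offset of 50), these counts were 8 fibroblast and 9 macrophage markers. That column followed the spot signal itself (r = 0.997 of log2 values), so its subtraction also took away signal. Values under normexp, here and below, are therefore no second measure of brightness. Among the defining markers of fibroblasts, Pdgfra, a receptor for platelet-derived growth factor, had a signal of 696.5, at percentile 95.2. Pdpn, which encodes podoplanin, a glycoprotein of synovial lining fibroblasts, had 177.8, at percentile 82.9. Col1a1, a chain of type I collagen, had 529.2, at percentile 93.8. Among those of macrophages, Cd68, a lysosomal glycoprotein, had 2015.4, at percentile 98.4. Ptprc, which encodes CD45, had 345.1, at percentile 90.5, and Itgam, which encodes CD11b, had 207.9, at percentile 84.9. All 6 were thus above the median, and 4 of them were in the brightest 10%. Under normexp Pdgfra, Pdpn, Cd68 and Ptprc were at percentiles 98.98, 89.1, 98.1 and 72.0, whereas Col1a1 was at 2.90 and Itgam at 10.3. In such a bulk sample the share of a cell type and the amount of RNA per cell cannot be told apart, so these signals give no ratio of macrophages to fibroblasts.

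Lysozyme, ferritin and the machinery of translation gave the brightest signals. Lyz2, the lysozyme of macrophages and granulocytes, was the brightest gene of the array at 27288.9. The places given here are those among named genes, and the brightest probe without a gene name had 19919. Lyz1, a near-identical copy, was the third at 22078.3, and since a probe may bind both transcripts their separate levels are uncertain. Between them lay Fth1 at 23646.7, the heavy chain of ferritin, the protein that stores iron, and Ftl1, the light chain, was the fifth named gene with probes of 20649.7 and 16899.0. Eef1a1, the factor that brings tRNA to the ribosome, had 21651.3, and Ppia, the folding enzyme cyclophilin A, had 17007.0. Vim, the intermediate filament of mesenchymal cells, also made by macrophages, was the seventh at 14728.0.

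Ribosomal protein genes and pseudogenes made up 13 of the 30 brightest named genes, and genes of the cytoskeleton, galectins and lysosomal proteases were among the others. Tmsb4x, thymosin beta 4, which binds monomeric actin, had 13589.2. Actg1, cytoplasmic gamma actin, had 11259.8. Galectins were represented by Lgals1 at 13459.4 and by Lgals3, which is abundant in macrophages, at 9135.4. The lysosomal proteases Ctsd and Ctsb had 12902.7 and 12181.1. S100a4, a calcium-binding protein of motile fibroblasts and myeloid cells, had 9906.3, Prdx1, a peroxidase, 9347.8, and Hspa8, a chaperone, 8600.9. Snhg7, the host transcript of a small nucleolar RNA, was the one long non-coding RNA at 10324.8. The 13 were 9 ribosomal protein genes, led by Rpl41 at 14504.1, and 4 pseudogenes, Gm11942, Gm15772, Gm10059 and Gm5239, between 14268.6 and 8845.9. Pseudogenes often copy abundant transcripts, and their probes may read the parent gene.

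**Figure D3:**
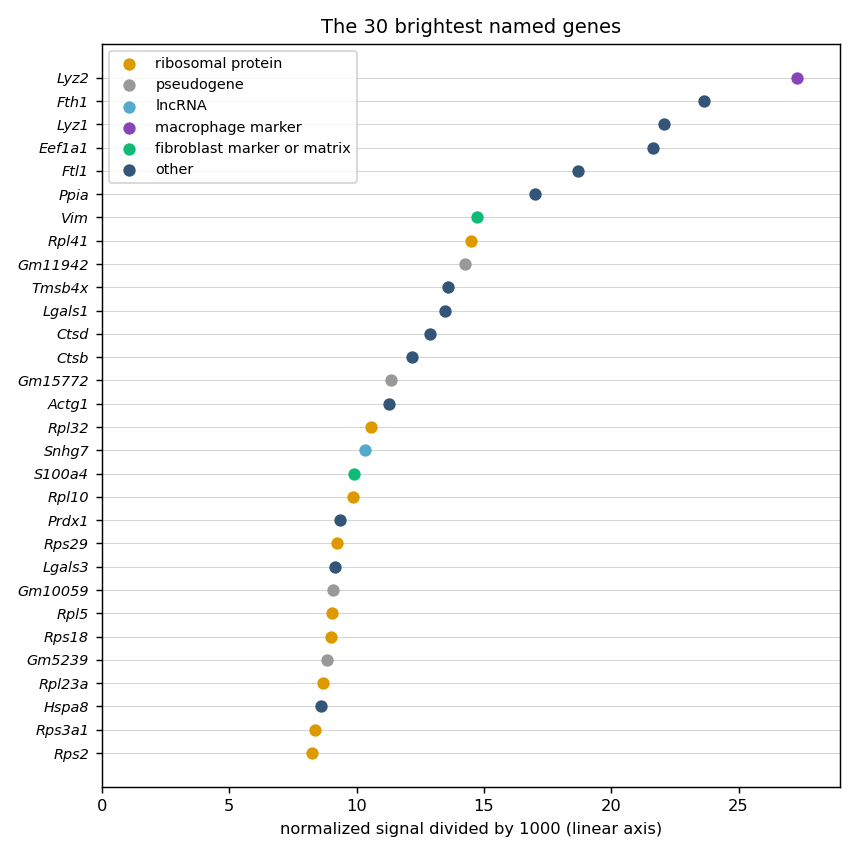
Normalized signal divided by 1000 (x axis, linear, from 0) of the 30 brightest named genes (rows), coloured by kind. Lyz2 stands first at 27288.9 and Rps2 thirtieth at 8258.7, with 9 ribosomal protein genes and 4 pseudogenes among them.

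The signal was concentrated in few genes. The brightest 10 held 6.37% of the summed signal of named genes, the brightest 100 held 26.5% and the brightest 1000 held 66.0%. Of the brightest 100, 33 were ribosomal protein genes, 19 pseudogenes, 6 fibroblast markers or matrix genes and 4 macrophage markers. Over all 66 ribosomal protein genes, 65 were detected, 46 were in the brightest 10%, and together they held 8.79% of the summed signal. The one not detected, Rpl3l, is a paralog of skeletal muscle and heart. They were not uniform, since Rpl21 had 16.2, Rpsa 10.6, Rps20 10.4 and Rpl37 4.9. Of actin cytoskeleton, annexin and galectin genes 17 of 19 were in the brightest 10% and the dimmest detected, Tmsb10, had 102.6, and Myl12a, a myosin light chain, was not detected.

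Fibroblast markers ran from the filament protein Vim to Fap at 78.8, a surface protease of activated fibroblasts. All 20 passed the median. Fn1, fibronectin, had 8241.0, and Col1a2, a type I collagen chain, had 6273.4. Gsn, an actin-severing protein, had 1904.5, and the small proteoglycans Lum and Dcn had 1194.3 and 1007.4. Thy1, the surface protein of sublining and perivascular fibroblasts, had 510.8 from 1 of its 2 probes and was not detected by the other. In the same list Cdh11, the cadherin that joins synovial fibroblasts, had 262.2 and Pdgfrb 176.4. The transcription factors of limb mesenchyme lay near the dim end, with Prrx1 at 108.9 and Twist1 at 106.0.

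Genes that separate the lining from the sublining were both present. Prg4, which encodes lubricin, the lubricant made by lining fibroblasts, had 5527.9, at percentile 99.6, but 0.627 under normexp. It was the one lining marker of 10 in the brightest 10%, and 5 of the 10 passed the median. Htra4, a serine protease, followed at 222.9, and Itga6, an integrin of laminin, at 107.5. Cd55, a complement regulator commonly used to mark lining fibroblasts, had 24.2, at percentile 48.0, and Dnase1l3 had 2.5. Of the 11 sublining markers on the array, 10 were detected, 8 passed the median and 5 were in the brightest 10%. They were led by Mfap5, a microfibril protein, at 1211.8, by the chemokine Cxcl12 at 1171.5 and by Ly6c1 at 908.6. Markers of adventitial fibroblasts were mixed. Pi16 had 102.2, at percentile 73.9, whereas Cd34 and Clec3b had 13.6 and 11.8, and Dpp4 was not detected.

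Macrophage markers ran over a wider range. After Lyz2 came Ctss, a cathepsin of antigen-presenting cells, at 6581.4. C1qb, a chain of complement C1q made mainly by tissue macrophages, had 5171.5, with C1qa at 2385.7 and C1qc at 2012.2. Apoe, the lipid carrier, had 5059.0, and Gpnmb, a glycoprotein of lipid-loaded and phagocytic macrophages, had 4086.1. The signalling adaptors Fcer1g and Tyrobp had 3947.1 and 2463.1, and the lipid receptor Trem2, which signals through Tyrobp, had 2037.3. The macrophage receptors Adgre1 (F4/80) and Csf1r had 462.7 and 355.3. The dim end held Mertk, a receptor for dying cells, at 82.3, and the chemokine receptor Cx3cr1, which marks the lining macrophages of the mouse joint, at 51.5. Marco, a scavenger receptor, and Cd163, the haemoglobin receptor of resident macrophages, were the 2 of 30 below the median, at 14 and 8.8.

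Markers of resident synovial macrophages were mixed. Of 10, all 10 were detected, 7 passed the median and 2 were in the brightest 10%, the folate receptor Folr2 at 784.2 and the scavenger receptor Stab1 at 422.0. Fcna, a lectin, had 113.5 and Axl, a receptor for dying cells, 49.2. Vsig4, a complement receptor of lining macrophages, had 35.8, Lyve1 had 5.6 and Timd4 was the dimmest at 2.3. Macrophages bind immune complexes through Fc gamma receptors. A list of these receptors that also held the adaptor Fcer1g and the genes Fcgrt and Trim21 was detected in 7 of 7. The 3 in the brightest 10% were Fcer1g, Fcgr3 and Fcgr2b. Fcgr3 had 1654.0 and Fcgr2b, the inhibitory receptor, had 511.9, whereas Fcgr4 had 25.9.

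The promoters of 3 bright genes, 2 of them macrophage markers, are shown for the letters they hold. Each line gives the 120 bases before the annotated start of transcription in RefSeq, build GRCm38.p6, written along the gene's strand, with matches to the searched letters in capitals. Lyz2 (chr10:117282273-117282392, minus strand) is the brightest gene, C1qb (chr4:136886201-136886320, minus strand) the brightest C1q gene, and Mmp3 (chr9:7445702-7445821, plus strand) the brightest metalloprotease gene.
Lyz2: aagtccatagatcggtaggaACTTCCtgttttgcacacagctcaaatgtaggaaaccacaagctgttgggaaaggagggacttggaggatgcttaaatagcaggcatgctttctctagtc
C1qb: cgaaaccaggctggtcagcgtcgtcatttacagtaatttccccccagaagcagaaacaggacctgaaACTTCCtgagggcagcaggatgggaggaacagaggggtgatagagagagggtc
Mmp3: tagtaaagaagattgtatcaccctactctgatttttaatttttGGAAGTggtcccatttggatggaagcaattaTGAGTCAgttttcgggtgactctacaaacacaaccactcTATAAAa
The letters searched on both strands were GGAAGT (read ACTTCC on the other strand), a core bound by ETS factors, TGAGTCA, the site of AP-1, and TATAAA, the TATA box. None of them overlaps another in these windows. In the 250 bases before the start, GGAAGT was found in 9 of 22 macrophage markers with a promoter sequence here and in 22.2% of all 27025 promoters. It was also found in 6 of 16 metalloprotease genes and in 2 of 10 fibroblast markers. TGAGTCA was found in 7 of 16 metalloprotease genes (Mmp1a, Mmp1b, Mmp3, Mmp7, Mmp10, Mmp12 and Mmp13) and in 5.16% of all promoters. TATAAA was found in 8 of the same 16, in 5 of 10 fibroblast markers, in 4 of 22 macrophage markers and in 14.3% of all. TGAGTCA was found in 0 of 10 fibroblast markers and in 1 of 22 macrophage markers. Of these 7 genes with TGAGTCA, Mmp3, Mmp12 and Mmp13 were in the brightest 10%, Mmp7 and Mmp10 had signals of 6.3 and 6.1, and Mmp1a and Mmp1b were not detected. The letters and the genes shown were picked after promoters had been looked at, so that these counts are descriptions, and a match is not a site in use.

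Among matrix genes, chains of types I, III, V and VI collagen gave the brightest collagen signals. Of 43 collagen genes 38 were detected, 14 passed the median and 7 were in the brightest 10%, 2 under normexp. Col1a2 was followed by the type V chains Col5a2 at 3042.5 and Col5a1 at 2301.8, which nucleate type I fibrils, and by Col3a1 at 1768.1. Then came Col6a1 of the beaded filaments at 728.0, Col1a1 at 529.2 and Col5a3 at 358.2. Chains of one trimer could lie far apart, as Col1a1 and Col1a2 did, and Col6a1 lay far above Col6a2 at 47.2 and Col6a3 at 22.9. Differences of this size also occurred between probes of 1 gene. Of the basement membrane chains, Col4a2 had 140.1 and Col4a1 9.1, and Col4a3 was not detected. Col19a1, Col25a1, Col6a6 and Col9a2 were not detected either, and Col6a5 was the dimmest detected at 1.2.

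Matrix glycoproteins and proteoglycans were nearly all bright, with 34 of 35 detected, 30 above the median and 16 in the brightest 10%, against 17 and 8 under normexp. After Fn1 and Prg4 came Bgn, biglycan, at 4730.0 and Sparc, osteonectin, at 2725.0. Comp, a matrix protein of cartilage, tendon and synovium, had 904.4, and Postn, periostin, had 693.6. Acan, the large proteoglycan of cartilage, was not detected, and Mfap4, a microfibril protein, was the dimmest detected at 1.1. Enzymes that mature and crosslink collagen were detected in 18 of 18 genes, with 14 above the median and 8 in the brightest 10%. They were led by P4hb, a subunit of prolyl 4-hydroxylase, at 2253.8 and by Lox, lysyl oxidase, at 1821.3. Pcolce, which enhances the removal of procollagen's C-terminal end, had 1150.9, Loxl1 had 628.5, and Adamts14, a procollagen N-proteinase, was the dimmest at 4.5.

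Genes of hyaluronan, the polymer that makes joint fluid viscous, were of middle signal. Of 11, 10 were detected, 5 passed the median and 0 were in the brightest 10%. Hmmr, a hyaluronan-binding protein of dividing cells, had 309.3. Has2, a hyaluronan synthase, had 188.8, and Tnfaip6, which binds hyaluronan in inflammation, 95.3. Has3 was not detected. Cd44, the main receptor of hyaluronan, which fibroblasts and macrophages carry, had a signal of 1.5 from its single probe, at percentile 3.64 (45.3 under normexp) and below the 99th percentile of spots without a probe.

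**Figure D4:**
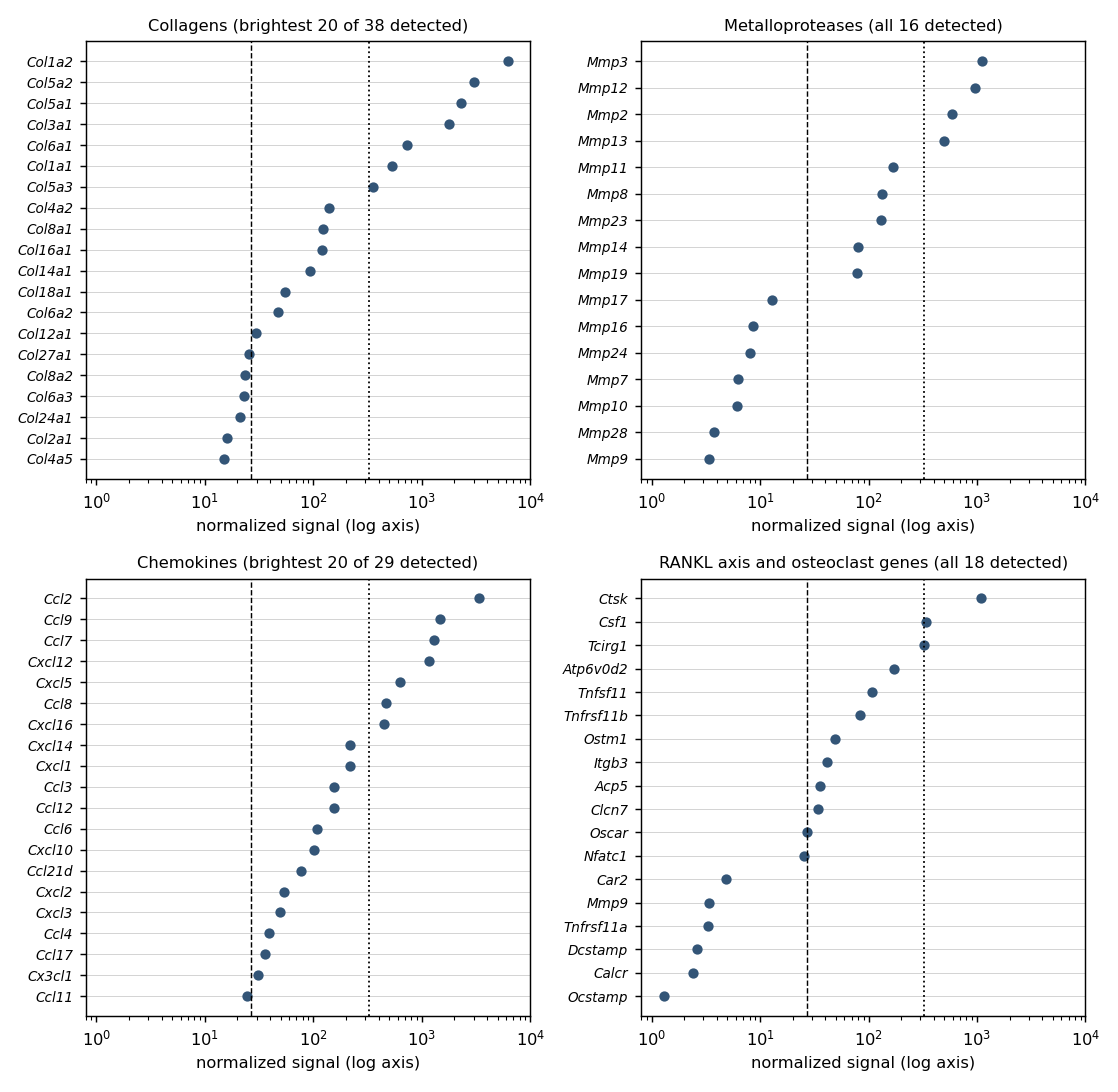
Normalized signal (x axis, log) of the brightest 20 of 38 detected collagen genes, all 16 detected metalloprotease genes, the brightest 20 of 29 detected chemokine genes and all 18 genes of the RANKL axis and osteoclasts (rows, 1 point per gene). Dashed and dotted lines mark the median of detected genes (26.9) and the limit of the brightest 10% (326.9), which 7 collagens, 4 metalloproteases, 7 chemokines and 2 genes of the RANKL axis passed.

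Matrix metalloproteases (MMPs) ran from bright to undetected, with a share above the median close to that of all named genes. Of 21 genes 16 (76.2%) were detected, 9 (42.9%) passed the median and 4 (19.0%) were in the brightest 10%. The shares of all named genes were 82.6%, 41.3% and 8.26%. Mmp3, stromelysin 1, which cleaves proteoglycans and activates other MMPs, had 1115.7. Mmp12, the elastase of macrophages, had 968.3. Mmp2, gelatinase A of fibroblasts, had 584.1 and Mmp13, the main collagenase of the mouse, had 497.3. Mmp8, the collagenase best known from neutrophils, had 134.4, and Mmp14, the membrane protease that activates Mmp2, had 80.2. Mmp10, stromelysin 2, had 6.1 and Mmp9, gelatinase B of osteoclasts and neutrophils, was the dimmest detected at 3.4. Mmp1a, Mmp1b, Mmp20, Mmp21 and Mmp25 were not detected.

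Their inhibitors were bright as well, and so were lysosomal proteases. Timp1, which inhibits most MMPs, had 2494.0, Timp2 had 576.6, Timp3 290.1 and the membrane inhibitor Reck 15.2, while Timp4 was the dimmest at 2.2. Of 18 ADAMTS genes 14 were detected, 4 passed the median and 1 was in the brightest 10%. This was Adamts5, the aggrecanase that degrades cartilage in mice, at 390.4. Adamts1 followed at 247.5, Adamts17 at 37.0 and Adamts4, another aggrecanase, at 34.4. Adamts6 was the dimmest detected at 1.2, and Adamts8, Adamts12, Adamts18 and Adamts19 were not detected. Of 18 cathepsins 15 were detected and 9 were in the brightest 10%. Ctsd, Ctsb and Ctss were followed by Ctsl at 4101.8. Ctsj and Ctsq, which are placental genes of the mouse, and Ctsw, of cytotoxic lymphocytes, were not detected.

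Genes of bone resorption were all detected but mostly of middle signal. Of 18 genes of the RANKL axis and osteoclasts, 10 passed the median and 2 were in the brightest 10%. Tnfsf11, which encodes RANKL, the ligand that osteoclast precursors need, had 107.0. Tnfrsf11b, which encodes its decoy osteoprotegerin, had 83.5, and Tnfrsf11a, the receptor RANK, had 3.3. Csf1, the other factor that osteoclast precursors need, had 335.4. Among genes of the mature osteoclast, Ctsk, the collagen-degrading cathepsin that synovial fibroblasts also make, had 1096.0. Tcirg1 and Atp6v0d2, subunits of the proton pump, had 326.2 and 170.4, and Acp5, the acid phosphatase TRAP, had 35.6 as the mean of probes that were 160.1 and 7.9. The fusion genes Dcstamp and Ocstamp had 2.6 and 1.3, the calcitonin receptor Calcr 2.4, and Nfatc1, the main transcription factor of osteoclasts, 25.6.

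Of bone-forming genes 35.7% passed the median and 14.3% were in the brightest 10%, and of cartilage genes 16.7% and 5.56%. The shares of all named genes were 41.3% and 8.26%, and those of the RANKL list 55.6% and 11.1%. Of 14 osteoblast genes on the array 11 were detected, 5 passed the median and 2 were in the brightest 10%, Sparc and the transcription factor Atf4 at 899.6. Alpl, alkaline phosphatase, had 110.5, Pth1r, the parathyroid hormone receptor, 83.0, and Bglap, osteocalcin, 36.7. Dmp1, of osteocytes, was the dimmest detected at 3.5, and Phex, Sost and Mepe were not detected. Runx2 had no probe under its name and was not analysed here. Of 18 chondrocyte genes 14 were detected, 3 passed the median and 1, Comp, was in the brightest 10%. Ucma and Sox6 had 49.5 and 41.2. Col2a1, whose product is the collagen of cartilage and which was at percentile 79.9 under normexp, had 16.1, Sox9, its transcription factor, 13.9, and Col10a1, of hypertrophic cartilage, 13, all below the 95th percentile of olfactory receptors. Cnmd was the dimmest detected at 1.1, and Sox5, Acan, Snorc and Ihh were not detected.

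Chemokines that draw monocytes led the chemokine genes. Of 35 chemokine genes 29 were detected, 19 passed the median and 7 were in the brightest 10%. Ccl2, at percentile 0.332 under normexp, had 3352.7, Ccl9 1479.2, Ccl7 1302.2 and Cxcl12, which retains leukocytes in tissue, 1171.5. Cxcl5, a neutrophil attractant, had 625.9 and Cxcl1 217.5. Among lymphoid chemokines, Ccl21d had 77.5, at percentile 68.9, and Cxcl13, which draws B cells, had 5.3. Ccl19, which draws T cells, was not detected. Ccl1, Ccl24, Ccl28, Cxcl15 and Xcl1 were not detected either, and Ccl25 was the dimmest detected at 4.95.

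Chemokine receptors were dim, with 14 of 21 detected, 5 above the median and 2 in the brightest 10%. These were Ccr4, a receptor of T helper cells, at 1374.6 and the scavenging receptor Ackr3 at 435.3. Ackr4 had 115.5 and Cxcr4, the receptor of Cxcl12, 74.1. Ccr2, the receptor through which monocytes follow Ccl2, had 4.5, and Ccr6 was the dimmest detected at 1.7. Ackr1, Ccr7, Ccr8, Cxcr1, Cxcr2, Cxcr6 and Xcr1 were not detected.

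Cytokine genes were mostly below the median. Of 33 interleukins 24 were detected, 8 passed the median and 0 were in the brightest 10%. Il1rn, the antagonist of interleukin 1, was the brightest at 182.3, while Il1b had 16.2 and Il1a was the dimmest detected at 1.2. Il31, known from T cells, had 156.9, Il18, of macrophages, 134.0, and Il12b 106.9. Il6, a main inflammatory product of FLSs, had 42.7, at percentile 58.3. The T cell cytokines Il2, Il4, Il9 and Il21 were not detected, nor were Il12a, Il17b, Il17c, Il17d and Il24. Other cytokines known from T cells were detected. Il3 passed the median, and Il17a passed only the 95th percentile of olfactory receptors. Il13, Il5 and Il17f lay below that percentile. Tnf had 23.1, just above the 95th percentile of olfactory receptors. Of 18 ligands of the TNF superfamily 13 were detected, 3 passed the median, Tnfsf11, the T cell co-stimulator Tnfsf9 at 79.2 and the B cell factor Tnfsf13 at 60.1, and 0 were in the brightest 10%. Tnfsf10, Tnfsf18, Cd40lg, Cd70 and Eda were not detected, and Tnfsf4 was the dimmest detected at 1.8.

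Several growth factors were bright. Of 24 colony-stimulating and growth factors 22 were detected, 13 passed the median and 4 were in the brightest 10%. They were Gas6, a ligand of Axl and Mertk, at 1101.1, Igf1 at 926.0, Fgf7 at 561.6 and Csf1. Csf2, which encodes GM-CSF, and Kitl were not detected, and Csf3 was the dimmest detected at 1.0.

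Interferon genes were dim, and the genes that interferons induce lay mostly between the median and the brightest 10%. Of 19 interferon genes 15 were detected, 4 passed the median and 0 were in the brightest 10%. The brightest was Ifna1 at 58.9, followed by Ifnz, Ifna5 and Ifna14 between 46.8 and 33.8. The type I interferon genes are close copies of one another, so that a probe may read several. Ifnb1 had 3.3, Ifng, the interferon of T and natural killer cells, 2.6, and Ifna7 was the dimmest detected at 1.1. Ifna2, Ifna4, Ifnab and Ifnk were not detected. Of 22 interferon-stimulated genes on the array all 22 were detected, 19 passed the median and 1 was in the brightest 10%, Ifitm3, which blocks virus entry, at 2423.1. Bst2, which tethers virions, had 287.7, Irgm1, a GTPase of host defence, 255.1 and Rsad2, viperin, 235.0. Mx1, a GTPase that blocks influenza virus, was the dimmest at 16.6.

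Genes of co-stimulation were read because CTLA-4-Ig binds CD80 and CD86. Of 15 co-stimulatory and checkpoint genes 14 were detected, 9 passed the median and 0 were in the brightest 10%. Cd80 had 48.0, at percentile 60.4, or 20.7 under normexp. The position of its probes was not given, so transcripts of the transgene and of the mouse's own gene cannot be told apart. Cd86 had 11.1, at percentile 33.8 and below the 95th percentile of olfactory receptors. Cd274, which encodes PD-L1, had 28.1, at percentile 50.8, and Pdcd1lg2, which encodes PD-L2, was not detected. Among the rest, Lgals9, a ligand of Havcr2, was the brightest at 230.7, Vsir had 87.8, Tnfsf9 79.2 and Havcr2 71.0, and Tnfsf4 was the dimmest detected. On the T cell side, the receptors Cd28, Pdcd1 and Ctla4 had 77.3, 5.1 and 1.3.

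Antigen presentation was split between the classes of the major histocompatibility complex. Of 15 class I genes all 15 were detected, 12 passed the median and 6 were in the brightest 10%. B2m, the light chain, had 6107.5, H2-K1 4441.9, H2-T23 3464.7 and Pdia3, of the peptide-loading complex, 2467.4. H2-D1 was the dimmest at 5.3, and as class I heavy chains are highly polymorphic and alike, their separate signals are uncertain. Of 9 class II genes on the array all 9 were detected, 2 passed the median and 0 were in the brightest 10%. These were the peptide exchange factor chains H2-DMb1 at 141.4 and H2-DMa at 39.9. Ciita, the master regulator of class II, had 19.1, H2-Aa 15, Cd74, the invariant chain, 4.6, H2-Ab1 4.4, and H2-Oa was the dimmest at 1.5. The class II genes that present peptide were thus all below the 95th percentile of olfactory receptors, in a culture where 28 of 30 macrophage markers were above it. Each of H2-Aa, H2-Ab1 and H2-Eb1 has 1 probe, and whether it matches the alleles of these mice was not tested. For the protein, the study saw few MHC II-positive cells among cultured synovial cells by flow cytometry.

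Complement genes were bright beyond C1q. Of 17 on the array 16 were detected, 12 passed the median and 7 were in the brightest 10%. Serping1, the inhibitor of C1, had 1272.7, C3ar1, the receptor of C3a, 1200.4, and Cfp, properdin, 711.3. Cd46 was the dimmest detected at 3.3, and C6, of the membrane attack complex, was not detected.

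Markers of lymphocytes were mostly dim. Of 44 markers of T, B and natural killer cells on the array 33 were detected, and 5 passed the 95th percentile of olfactory receptors, against 43.9% of all named genes. No member was in the brightest 10%. Under normexp 8 T cell markers passed the median and 1 was in the brightest 10%, and of the B cell and plasma cell markers 5 and 1. Of 19 T cell markers 17 were detected, and Cd3e and Cd3g, signalling chains of the T cell receptor, were not. Cd3d had 6.8, Cd4 4.3 and Cd8a 4.96. The 4 that passed were Tbx21 at 230.9, a transcription factor of T helper 1 cells, Foxp3 at 121.1, that of regulatory T cells, Cd28 at 77.3 and Il7r at 59.1. Of 15 B cell and plasma cell markers 11 were detected and 1 passed, Sdc1 at 102.6, a proteoglycan of plasma cells that epithelium and some stromal cells also carry. Cd22 had 21.5, Ebf1 12.9, Cd79b 8.1, and Ms4a1, which encodes CD20, was the dimmest detected at 1.2. Cr2, Blk, Prdm1 and Pou2af1 were not detected. Of 10 natural killer cell markers 5 were detected and 0 passed. Gzmb had 19.7, Eomes 11, Il2rb 4.0, Ncr1 1.7 and Gzma 1.1, and Klrb1c, Klrk1, Prf1, Nkg7 and Klrd1 were not detected. Foxp3 has 2 probes, of which 1 gave this signal and the other was not detected. Tbx21, Cd28, Il7r, Ccr4 and Il31 each have 1 probe. Under normexp Foxp3 was at percentile 9.72 and Ccr4 at 26.8. What these probes read was not tested.

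**Figure D5:**
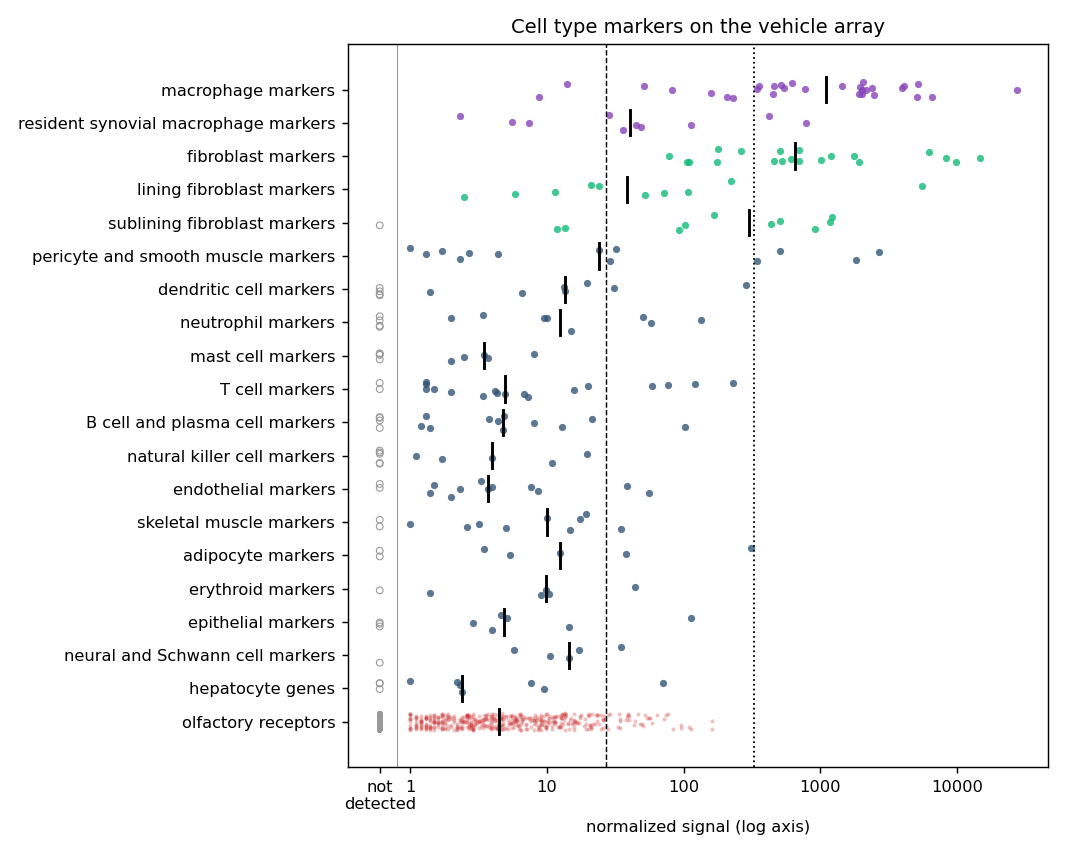
Normalized signal (x axis, log) of the markers of each cell type (rows, 1 point per gene), with undetected genes as open circles at the left and a black bar at the median of the detected members. The lists of macrophage markers (purple) and fibroblast markers (green) centre above the limit of the brightest 10%, 326.9 (dotted), their lining, sublining and resident lists lower but above the median of detected genes, 26.9 (dashed), and the lists of other cell types below it, as do the olfactory receptors (red).

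Other cell types of a joint were read in the same way. Of 11 dendritic cell markers 7 were detected and 2 passed the 95th percentile of olfactory receptors, Bst2, which interferon also induces, and Itgax, which encodes CD11c and which macrophages also carry, at 30.9. Ccl22 had 19.6 and Batf3 13.7, Cd209a was the dimmest detected at 1.4, and Flt3, Xcr1, Clec9a and Ccr7 were not detected. Of 12 neutrophil markers 8 were detected and 3 passed, Mmp8, S100a8 at 57.5 and Ly6g at 50.7. S100a9, the partner of S100a8, was not detected, and neither were Mpo, Ltf and Cxcr2. Csf3r had 15 and Ngp was the dimmest detected at 2.0. Of 9 mast cell markers 5 were detected, the brightest being Mcpt4 at 8.0, Hdc at 3.7, Tpsab1 at 3.5 and Cpa3 at 2.5, with Ms4a2 at 2.0. Kit, Tpsb2, Fcer1a and Cma1 were not detected.

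Vessel walls gave an uneven picture. Of 13 endothelial markers 11 were detected and 2 passed the 95th percentile of olfactory receptors, the growth factor receptor Kdr at 56.2 and Egfl7 at 38.3. Erg had 8.6 and Flt1 7.7, Cdh5, the cadherin of endothelium, was the dimmest detected at 1.4, and Pecam1, which encodes CD31, and Cldn5 were not detected. Of 13 markers of pericytes and smooth muscle all 13 were detected, 7 passed the same percentile and 4 were in the brightest 10%. These were contractile genes that activated fibroblasts also make, Acta2, smooth muscle actin, at 2681.1, Tpm1 at 1810.3, Tagln at 508.2 and Tpm2 at 341.9. The others that passed this percentile were Cspg4 at 32.2, Mcam, and Cnn1 at 24.2, of which Cspg4 and Mcam also passed the median of detected genes. The rest of the list lay below the percentile, with Notch3 at 4.4, Rgs5 at 2.7, Myh11 at 2.3 and Kcnj8 the dimmest at 1.0.

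Markers of tissues that a dissection could carry over were mostly below the median of detected genes. The detected members had median signals of 10.1 for skeletal muscle, 12.5 for adipocytes, 9.9 for erythroid cells and 14.5 for neural cells, against 4.5 for olfactory receptors. Of 11 skeletal muscle markers 9 were detected and 1 passed their 95th percentile, Tnni2 at 34.8. Myod1 had 19.5, Mylpf 17.4, Mb 14.9 and Myh4 1.0, and Myh2 and Pax7 were not detected. Of 7 adipocyte markers 5 were detected and 2 passed, Fabp4, a fatty acid carrier that macrophages also make, at 313.1 and Pparg at 37.8. Cidec had 12.5, Plin1 5.4 and Retn 3.5, and Adipoq and Lep, hormones of adipocytes, were not detected. Of 6 erythroid genes 5 were detected and 1 passed, the globin Hbb-bs at 44.3. Hba-a2 had 10.4, Alas2 9.9, Epb42 9.1 and Hbb-bt 1.4, and Slc4a1 was not detected. Of 9 epithelial markers 6 were detected and 1 passed, Cldn4 at 113.6, and Krt5, Krt10 and Krt8 were not detected. Of 6 neural markers 5 were detected and 1 passed, Sox10 at 34.8, and Syt1 was not detected. Of 10 hepatocyte genes 7 were detected and 1 passed, Fgb at 71.3, and Ttr, Fga and Fgg were not detected. Even the list of hepatocyte genes thus held a gene above this limit, as the T cell and B cell lists did.

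Genes of growth and metabolism were bright. Of 22 cell cycle genes all 22 were detected and passed the median, and 12 were in the brightest 10%, against 8.26% of all named genes. Pcna, the sliding clamp of DNA replication, had 2540.2, Cdk1, the kinase of mitotic entry, 817.4, Top2a 743.1 and Birc5, survivin, 542.9. Cdkn2a, which encodes inhibitors of the cycle, was the dimmest at 46.6. Of 15 glycolysis genes on the array all 15 were detected and 7 were in the brightest 10%, led by Pgam1 at 6401.7, Ldha at 6122.7, Aldoa at 6014.7 and Pgk1 at 4630.5, and with Eno1b at 5.7. Of 11 reference genes on the array all 11 were detected and 8 were in the brightest 10%. Hprt, used for scaling quantitative PCR of these cells, had 1594.8, while Polr2a, the large subunit of RNA polymerase II, had 8.9.

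The 3365 named genes that were not detected were partly made up of families used elsewhere in the body. Olfactory receptors gave 512 of them, vomeronasal receptors 94, bitter taste receptors 19, beta-defensins 18 and keratin-associated proteins 6. These 5 families made up 649, or 19.3%, of all undetected genes. Keratin-associated proteins, which are used in hair, were the exception among these families, with 29 of 35 (82.9%) detected and 8 above the median of detected genes. The other families were detected in 40.9% to 48.2% of their genes, against 82.6% of all named genes. By kind of gene, 65.7% of probes for long non-coding RNAs were detected, with a median signal of 6.0, against 82.9% of probes for protein-coding genes, with a median of 27.8. Probes for pseudogenes were detected in 86.9%, with a median of 168.8, and those for transcribed pseudogenes in 71.2%, with a median of 14.05.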

How the data were processed

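RNA of the vehicle culture was labelled with Cy5 and hybridized by the authors to 1 mouse oligo array (Toray 3D-Gene), read by a scanner at 3 gains. The deposited table holds the intensity of each spot after the authors subtracted the background and scaled detected signals to a median of 25. It is linear, with undetected probes left empty. The deposited scanner file gives a raw intensity and a background value for every spot. Probe values of the table were used as deposited, and 0 columns of sample values were left unmapped.

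The rule for blanks was found by matching the table: 5% of 384 blank spots were dropped at each end, leaving a mean intensity of 45.2 and a standard deviation of 0.861, with detection 2 standard deviations above. It gave 0 probes whose detection differed. Detection and scaling were tested on simulated spots. Positive control spots, 24 of each of 2 kinds, had coefficients of variation of 10.7% and 13.3%, which cover the array only, and 24 print blocks had 76.1% to 85.0% of probes detected.

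Gene names came from the platform annotation, brought up to date with RefSeq genes of GRCm38.p6 by gene identifier (20556 probes) or accession (9), and 125 kept the platform symbol. The files give no probe positions. The 53 gene lists and the members were chosen with earlier results of these data known. The text names the 30 brightest genes, 6 defining markers, the genes the study names, and in each list mainly the 4 brightest, the dimmest and the undetected members. Other genes were named after their values were seen, for their role or because their signal stood apart. The sequences come from RefSeq, and matches were sought in the 250 bases before each start.

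Alternatives were raw intensities, thresholds of 3 and 5 standard deviations, the brightest probe, genes with 1 probe, all genes ranked, a top 5% or 20%, and normexp with an offset of 50 (limma 3.58.1, R 4.3.3). Python 3.11.15, numpy 2.4.6, pandas 2.3.3, scipy 1.17.1 and matplotlib 3.10.9 were used.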

Additional observations from a re-analysis of the deposited data

Results flagged for a closer look

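Signals outside the named genes were seen in spots without a probe and in probes without a name. Of 3454 spots without a probe 21.6% were above the detection threshold, with a median signal of 0.448 and a highest of 21.4. Of 96 negative control spots 12 were above it. Of 2783 probes without a gene name here 2091 (75.1%) were detected, and 231 were in the brightest 10% of detected probes, above a signal of 329. The brightest had 19919.0. Their genes were not analysed here.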

How the results depend on the processing

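Of 11 recounts of detected probes and genes under the alternatives, 10 stayed within 1.5 times. The exception was the limit at the 95th percentile of olfactory receptors, chosen after the data were seen, which left 8489 genes, 4 T cell markers (17 detected otherwise), 1 B cell and plasma cell marker (11), 17 collagens (38) and 5 osteoblast genes (11). Normexp moved most list counts. It left 12 fibroblast markers above the median and 8 in the brightest 10% (20 and 14 otherwise), 13 and 9 macrophage markers (28 and 23), and 17 and 8 matrix glycoproteins and proteoglycans (30 and 16). It gave 2 collagens in the brightest 10% (7), 8 and 1 T cell markers (4 and 0) and 5 and 1 B cell and plasma cell markers (1 and 0). Under it Prg4 was at percentile 0.627 and Ccl2 at 0.332. The background column it subtracts followed the spot signal across the array (r = 0.997 of log2 values), so that signal was subtracted as well. Small counts moved by 1 gene or a few: B cell and plasma cell markers above the median were 2 under thresholds of 3 and 5 standard deviations, the 99th percentile of spots without a probe (also chosen after the data were seen), the brightest probe and all genes ranked. Genes of the RANKL axis in the brightest 10% were 1 under the same 3 thresholds, the brightest probe, genes with 1 probe and a top 5%, and 4 under a top 20%, which also held 1 T cell marker. Over all lists, 1163 counts stayed within 1.5 times and 162 moved, 75 of them from a count under 4 and 60 of them under normexp (31 higher, 29 lower). Of 54 percentiles of single genes, most of them chosen after their values were seen, 26 moved by more than their counting interval, 17 of them under normexp. This binomial interval treats the genes of 1 array as independent counts. It holds no error of measurement and served only as a fixed limit for calling a move. No paired analysis was possible because there was 1 array and no test.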

Other observations

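Genes outside the lists, named after their values were seen, extended the same picture. Cst3, the cystatin that inhibits cathepsins, had 6547.2, Cd63, a lysosomal tetraspanin, 5852.8, Npc2, a lysosomal cholesterol carrier, 5290.9, Psap, the precursor of the saposins, 1558.3, and Hmox1, which degrades haem and is induced with ferritin, 2224.1. Mif, an inflammatory mediator, had 3567.5 and Pf4, a chemokine of platelets and macrophages, 831.8. Receptors were dimmer, with Il6st, the shared chain of interleukin 6 receptors, at 536.5, Tlr2 at 384.8, Ifngr1 at 190.9, Ifnar1 at 167.8, Tlr4 at 162.3, Tnfrsf1a at 72.8 and Il6ra at 7.1. Oosp1, named for its secretion by oocytes, had 4788.1 from 1 probe, rank 84 among named genes, and what this probe reads was not tested.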
